A study of Mus musculus with 6 samples.

Results

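The tumour suppressor gene Trp53 and 9 of its target genes were followed through an ex vivo culture of mouse bone marrow. The 10 genes (Trp53, Cdkn1a, Mdm2, Bax, Bbc3, Pmaip1, Ccng1, Phlda3, Sesn2 and Trp53inp1) were taken by symbol from a table of 21761 genes, and all 10 were found. Expression was measured by RNA-seq in 6 libraries, and each value is in RPKM, reads per kilobase of exon, scaled to the library's reads in genes. Per the labels, the marrow came from male C57BL/6J mice and was grown in medium with a Flt3L supernatant made by a transfected SP2/0 line. Flt3L (Flt3 ligand) is the cytokine that drives dendritic cell development from marrow progenitors. The 3 groups of 2 libraries were day 0 bone marrow (its replicates being II and III), day 4 cells (I and II), labelled Common Myeloid Progenitor or CMP, and day 7 cells (III and IV), labelled BMDC for bone marrow derived dendritic cell. For day 4 and day 7 the labels state that the live cells were used without further selection. The sources used here do not give the ages of the mice or say whether replicates came from separate mice or cultures, so each p-value measures only the spread between these libraries, which may be technical.

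The p53 protein is a transcription factor that is kept scarce by the ubiquitin ligase MDM2 and is stabilised when cells meet DNA damage or other stress. It then turns on genes for cell cycle arrest, for apoptosis through the mitochondria, for metabolic adjustment and for its own restraint. Because the control acts largely on protein stability, the level of Trp53 mRNA need not follow the activity of the protein. In bone marrow, p53 is known for limiting the survival of progenitors after irradiation.

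Depth rose with the day of culture. The day 0 libraries held 157797 to 322837 reads in genes, those of day 4 held 1365635 to 3852628 and those of day 7 held 10951745 to 16149088. For a gene 1 kb long, 3 reads stood for 9.29 and 19.01 RPKM in the day 0 libraries II and III, and for at most 0.274 RPKM at day 7. Sensory receptor genes (1449 odorant, vomeronasal and trace amine receptors), read as a background measure, had a median of 3.11 and 2.47 RPKM in day 0 marrow, 2.28 and 0.279 in day 4 cells and 0 in both libraries of day 7 cells. Day, depth and this background cannot be told apart by design. The markers also moved with the day. Summed over 9 neutrophil markers the levels were 7747 to 63038 RPKM at day 0, 33613 to 44796 RPKM at day 4 and 167 to 174 RPKM at day 7. Over 8 erythroid markers they were 1236 to 1294, 129 to 147 and 0.685 to 0.783 RPKM, and over 10 macrophage markers 108 to 117, 55.3 to 65.4 and 10188 to 10677 RPKM. At day 7 the dendritic cell genes Flt3 (1.22 and 1.97 RPKM) and Zbtb46 (0.0288 and 0.0283 RPKM) were near 0, while the antigen presentation genes Cd74 (1814 and 1932 RPKM) and H2-Ab1 (666 and 730.3 RPKM) were abundant. The progenitor gene Kit had 8.34 and 18.1 RPKM at day 4. Of 8 myeloid progenitor markers, Kit among them, limma called 0 higher and 0 lower at day 4 against day 0. Over all genes tested 3.66% were higher and 1.92% lower there. The median log2 fold change of the 8 was -0.14, beside -0.40 over all genes. Summed over 10 dendritic cell markers the levels were 352 to 545 RPKM at day 0, 65.0 to 322 RPKM at day 4 and 3165 to 3447 RPKM at day 7. Of these 10, limma called 5 higher at day 7 against day 0 (Bst2, Cd74, H2-Ab1, Irf8 and Itgax) and 3 lower (Flt3, Xcr1 and Zbtb46). Over all genes tested 11.3% were higher and 29.3% lower, so that the lower count is near the background. The markers thus did not all go with the day 7 label, and the groups are called by their day.

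Promoter sequence is shown because p53 acts by binding DNA. RefSeq windows of 300 bases around gene starts (build GRCm38.p6, not the mm9 build named for the expression files) were held for 8 of the 10 genes, 11 windows in all. They were searched on both strands for the p53 single-repeat consensus, a 10-base motif named here without its letters, and for a core pair, which is one of the tetramers CAAG or CATG, or else CTAG or CTTG, followed after any 6 bases by one of the same 4. A single repeat was found for 5 of the 8 genes and in 8.36% of all 32851 windows, and a core pair for 3 of the 8 genes and in 7.22% of all windows. A gene can have more than 1 window, so the counts per gene and the shares per window are not in like units. The core pair of Cdkn1a, with CATG on both sides, is of a form held by 0.712% of windows, and a single repeat overlaps it. In Trp53 the single repeat and the core pair also overlap. Each line gives 5′ to 3′ sequence on the gene's strand, upstream of a start, with the matched letters in capitals.
Cdkn1a, core pair, chr17:29090911-29090964 (+): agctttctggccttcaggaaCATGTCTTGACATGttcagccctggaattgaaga
Bbc3, core pair, chr7:16309469-16309522 (+): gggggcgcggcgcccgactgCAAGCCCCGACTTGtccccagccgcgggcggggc
Trp53, core pair, chr11:69580267-69580320 (+): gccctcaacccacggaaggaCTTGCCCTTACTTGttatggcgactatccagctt
Mdm2, single repeat, chr10:117710915-117710964 (-): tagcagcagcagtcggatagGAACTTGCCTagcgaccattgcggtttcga
Bax, single repeat, chr7:45467070-45467119 (-): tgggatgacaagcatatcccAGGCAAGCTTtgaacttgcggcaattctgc
Ccng1, single repeat, chr11:40755442-40755491 (-): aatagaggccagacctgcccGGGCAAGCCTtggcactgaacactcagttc
The matches begin 48 bases before the start for Cdkn1a, 94 for Bbc3, 72 for Trp53, 186 for Mdm2, 201 for Bax and 185 for Ccng1. The Cdkn1a match lies before the more upstream of its 2 listed starts, and no match was found in the window of the other. The Bbc3 match lies before the most upstream of its listed starts, with no match in its other windows. Phlda3 and Sesn2 had no match in these letters. A match is a description of sequence and not a measured binding site.

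Trp53 mRNA showed no called change over the culture. It had 30.4 (II) and 37.4 RPKM (III) in day 0 marrow, 23.3 (I) and 51.9 RPKM (II) in day 4 cells, and 27.7 (III) and 34.1 RPKM (IV) in day 7 cells, and the same library order holds for every gene that follows. The 3 days overlapped, and the 2 day 4 libraries held both the lowest and the highest value. The log2 fold change of RPKM + 1 was 0.05 for day 4 against day 0 (95% interval -0.99 to 1.08, limma adjusted p = 0.965), -0.17 for day 7 against day 4 (-1.21 to 0.86, adjusted p = 0.766) and -0.13 for day 7 against day 0 (-1.16 to 0.90, adjusted p = 0.824). These intervals leave room for changes of about 2-fold in either direction, and the sign of each estimate turned under other scalings. Reads of Trp53 and of its pseudogene Trp53-ps may have been split in mapping, so its level is uncertain to that extent.

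**Figure D1:**
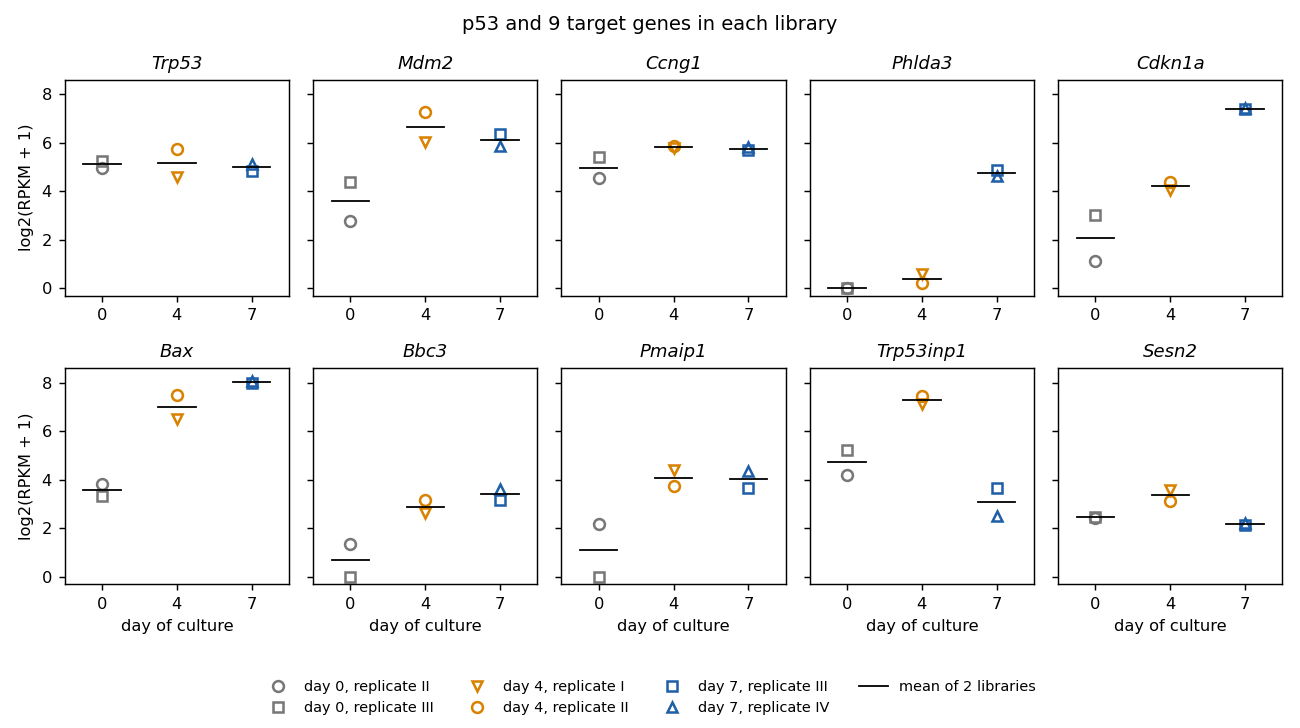
Expression of p53 and 9 target genes in each of the 6 libraries, as log2(RPKM + 1) against day of culture, with one symbol per library and a line at the mean of the 2 log2 values of a day. Trp53 overlaps across days, Cdkn1a and Phlda3 are highest in both day 7 libraries, Bax steps up by day 4, and Trp53inp1 is highest in both day 4 libraries.

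Of the targets that act on p53 itself or on growth signalling, Mdm2 was higher in all 4 cultured libraries than at day 0, and nearly all reads of Phlda3 came from day 7. Mdm2, the ubiquitin ligase that marks p53 for breakdown, had 5.89 and 20.1 RPKM in day 0 marrow, 65.1 and 153 in day 4 cells and 80.5 and 57.1 in day 7 cells. All 4 cultured libraries were above both day 0 libraries, and day 7 overlapped with day 4. Mdm2 rose at day 4 against day 0 (log2 fold change 3.07 ± 0.62 SE, limma adjusted p = 0.0314) and at day 7 against day 0 (2.51 ± 0.62, adjusted p = 0.0188), while day 7 against day 4 gave -0.55 ± 0.62 (adjusted p = 0.503). Set against Trp53 in the same library, Mdm2 stood at 0.193 and 0.537 times its RPKM at day 0, 2.80 and 2.95 times at day 4, and 2.90 and 1.67 times at day 7. The day 4 call did not pass by voom on reads (adjusted p = 0.077), quantile normalization (0.0592) or thinning to a common depth (0.0738). It also did not pass with a pseudocount of 0.1 RPKM (0.0625), weights per library (0.206) or no trend (0.0689). The day 7 call against day 0 did not pass by quantile normalization (0.122), thinning (0.0801) or the 2 groups only (0.0689). Fits with a library left out leave a single library in a group, and only their fold changes are given. They were 3.68 and 2.46 at day 4 without day 4 library I or II. At day 7 against day 0 they were 2.27 and 2.76 without day 7 library III or IV. The bulk values cannot tell fewer cells of a type from less RNA per cell, here and for each gene that follows.

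Phlda3, whose protein blocks the kinase Akt at the membrane, had 0 reads in both day 0 libraries, 1 read in each day 4 library (0.499 and 0.177 RPKM), and 680 and 388 reads at day 7 (28.7 and 24.2 RPKM). Both day 7 libraries stood far above all others. Pooled by day and scaled to depth, its reads were 103 times as many at day 7 as at day 4 (exact 95% counting interval 28.4 to 850). Against a floor of 3 reads over the day 0 group they were 6.31-fold higher at day 7. The exact 95% counting interval against the 0 reads of day 0 began at 5.13-fold. The gene passed the filter on low values only through day 7, so it had to differ to be tested, and its limma call is not given as support. At day 4 and day 0 it was at or under the floor, so no fold is given between them.

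Ccng1 encodes cyclin G1, which brings a phosphatase to MDM2. It had 22.2 and 41.8 RPKM in day 0 marrow, 53.97 and 58.2 in day 4 cells and 50.7 and 55.9 in day 7 cells. The cultured libraries were all above the day 0 libraries, but no comparison passed (log2 fold change 0.78 ± 0.41 for day 7 against day 0, limma adjusted p = 0.152, and 0.86 ± 0.41 for day 4 against day 0, adjusted p = 0.228). With a single day 0 library left, these fold changes were 1.22 and 1.30 without library III, and 0.34 and 0.41 without library II.

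Cdkn1a, which encodes the CDK inhibitor p21 and carries out p53-dependent cell cycle arrest, was higher at day 7 than at day 4 and day 0. It had 1.17 and 7.16 RPKM in day 0 marrow (1 and 3 reads), 15.7 and 19.9 in day 4 cells (57 and 204 reads) and 167 and 171 in day 7 cells (7160 and 4965 reads). The 3 days did not overlap, and each was above the one before. Cdkn1a rose at day 7 against day 4 (3.18 ± 0.59, limma adjusted p = 0.0116) and at day 7 against day 0 (5.34 ± 0.59, adjusted p = 0.0011). Day 4 against day 0 gave 2.15 ± 0.59 and did not pass (adjusted p = 0.0712), although it passed without day 0 library III (adjusted p = 0.00488). The call for day 7 against day 4 ended when any cultured library was left out, with adjusted p from 0.0513 to 0.226. Pooled reads scaled to depth were 8.95 times as many at day 7 as at day 4 (exact 95% counting interval 7.91 to 10.2) and 53.8 times as many at day 7 as at day 0 (20.99 to 197).

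The pro-apoptotic genes Bax, Bbc3 and Pmaip1 were higher at day 7 than at day 0. BAX forms pores in the outer mitochondrial membrane. Bax had 13.04 and 8.89 RPKM in day 0 marrow (6 and 2 reads). It had 88.4 and 179 RPKM in day 4 cells and 254 and 265 in day 7 cells, and the days did not overlap. Pooled Bax reads scaled to depth were 13.3 times as many at day 4 as at day 0 (exact counting interval 6.73 to 30.9). At day 7 they were 22.1 times as many as at day 0 (11.2 to 51.3). Bax rose at day 4 against day 0 (3.43 ± 0.45, limma adjusted p = 0.0117). It also rose at day 7 against day 0 (4.47 ± 0.45, limma adjusted p = 0.000759). Day 7 against day 4 gave 1.04 ± 0.45 (adjusted p = 0.169), and this step passed by voom on reads (1.29, adjusted p = 0.0271). The day 4 call of Bax did not pass by voom (adjusted p = 0.0939) or with weights per library (adjusted p = 0.103). Without day 4 library I or II, which leaves a single day 4 library, its log2 fold change was 3.93 and 2.92.

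Bbc3 and Pmaip1 encode PUMA and NOXA, BH3-only proteins that free or activate BAX and its relatives. Bbc3 had 1.57 and 0 RPKM in day 0 marrow, 5.19 and 7.88 in day 4 cells and 8.02 and 11.4 in day 7 cells. Its day 0 level rests on 1 read in library II, and the pooled ratio of day 7 to day 0 was 8.92 with an exact 95% counting interval from 1.59 to 353. Pmaip1 had 3.50 and 0 RPKM in day 0 marrow (3 reads in all), 20.1 and 12.2 in day 4 cells and 11.7 and 19.5 in day 7 cells, with a pooled ratio of day 7 to day 0 of 6.31 (2.15 to 30.7). For both genes all 4 cultured libraries were above both day 0 libraries, and they rose at day 7 against day 0 (Bbc3 2.72 ± 0.60, limma adjusted p = 0.0142, and Pmaip1 2.93 ± 0.71, adjusted p = 0.0185). Day 4 against day 0 did not pass for Bbc3 (2.21 ± 0.60, adjusted p = 0.0703) or for Pmaip1 (2.98 ± 0.71, adjusted p = 0.0506). Fits with a library left out leave a single library in a group, and only their fold changes are given. Without day 0 library II or III, day 4 against day 0 was 2.89 and 1.53 for Bbc3 and 4.06 and 1.89 for Pmaip1. Without day 7 library III or IV, day 7 against day 0 was 2.95 and 2.49 for Bbc3 and 3.28 and 2.58 for Pmaip1. The day 7 call of Pmaip1 against day 0 did not pass with the 2 groups only (limma adjusted p = 0.09). The day 0 levels of Cdkn1a, Bbc3, Pmaip1, Phlda3 and Sesn2 were below the 95th percentile of the sensory receptor genes (9.85 and 13.7 RPKM) in both libraries. Bax was below it in day 0 library III alone (8.89 RPKM) and Mdm2 in day 0 library II alone (5.89 RPKM). In day 4 library I, Bbc3 was also below the percentile of that library (8.71 RPKM). The part of this background in the result was not tested.

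Trp53inp1, a stress-induced gene whose protein takes part in p53-dependent cell death and in autophagy, was the one gene of the 10 called in opposite directions in the 2 steps. It had 17.5 and 36.7 RPKM in day 0 marrow, 138 and 172 in day 4 cells and 11.7 and 4.63 in day 7 cells. Both day 4 libraries were above all others and both day 7 libraries were below all others. Trp53inp1 rose at day 4 against day 0 (2.56 ± 0.52, limma adjusted p = 0.0322), fell at day 7 against day 4 (-4.20 ± 0.52, adjusted p = 0.00203) and fell at day 7 against day 0 (-1.64 ± 0.52, adjusted p = 0.0373). The 2 steps share the day 4 libraries and are not independent. By voom on reads both steps passed (2.81, adjusted p = 0.0335, and -4.12, adjusted p = 1.87e-05), while day 7 against day 0 did not (-1.31, adjusted p = 0.0703) and passed in 5 of 17 alternative settings. Fits with a library left out leave a single library in a group, and only their fold changes are given. Without day 4 library I or II the rise was 2.72 and 2.40, and the fall was -4.36 and -4.05. Day 7 against day 0 ranged from -2.23 without day 7 library III to -1.06 without day 7 library IV.

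Sesn2 encodes a sestrin, a stress-induced protein that senses leucine and restrains the growth kinase mTORC1. It had 4.38 and 4.48 RPKM in day 0 marrow, 10.9 and 7.74 in day 4 cells and 3.41 and 3.65 in day 7 cells. Both day 4 libraries were above all others, yet no comparison passed. Day 7 against day 4 gave -1.17 ± 0.45 (limma adjusted p = 0.132, and adjusted p = 0.0313 by voom), day 4 against day 0 gave 0.91 ± 0.45 (adjusted p = 0.246), and day 7 against day 0 gave -0.26 ± 0.45 (adjusted p = 0.642).

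**Figure D2:**
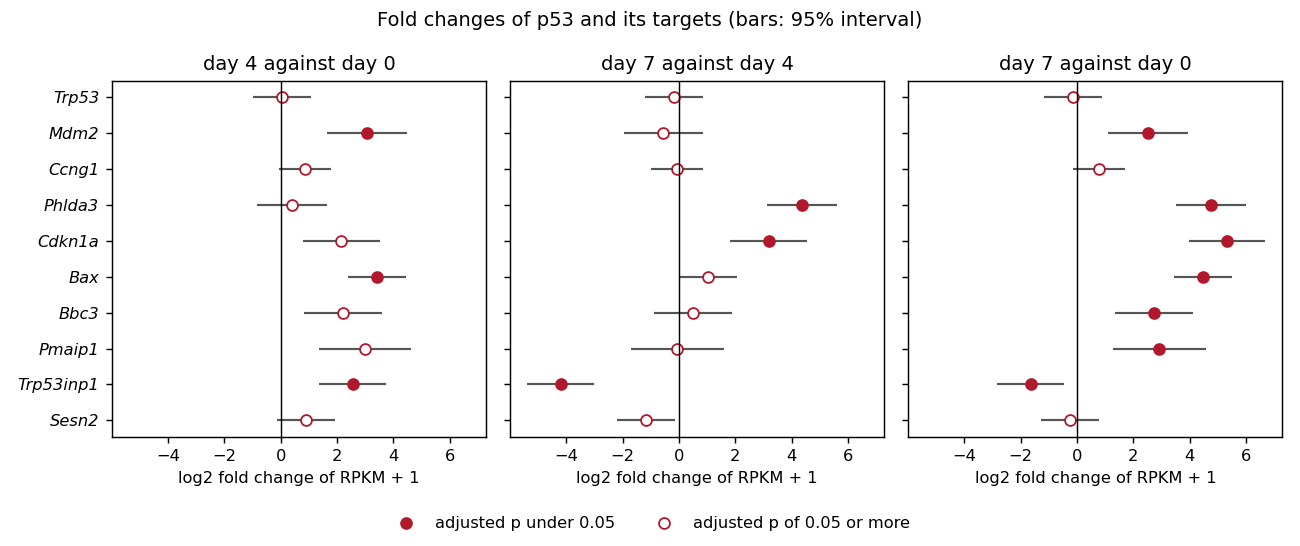
Log2 fold change of RPKM + 1 for each of the 10 genes in the 3 comparisons, with 95% intervals from limma as bars and filled points at adjusted p under 0.05. Intervals for Trp53 span 0 in each comparison, Trp53inp1 is filled on the positive side for day 4 against day 0 and on the negative side in the other comparisons, and Cdkn1a stands at 5.34 for day 7 against day 0. The Phlda3 point for day 4 against day 0 rests on values at or under the floor and is not read as a fold.

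All 10 genes passed the filter on low values. For day 4 against day 0, limma called 3 of the 10 higher (Bax, Mdm2 and Trp53inp1), where 3.66% of the 19279 genes tested were higher. It called 0 lower (0 at unadjusted p under 0.05 and 0 by voom), where 1.92% were lower and 5.58% changed either way. The median log2 fold change of the 10 was 2.18, beside -0.40 over all genes tested, and the median was 2.21 without Phlda3, which has no fold here. A fit without a library leaves its day with a single library, so its count of calls is not given. The calls are not shown to hold on fewer libraries. By voom on reads 1 gene passed, Trp53inp1.

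For day 7 against day 4, limma called 2 of the 10 higher (Cdkn1a, and Phlda3, which had to differ to be tested), where 5.85% of all genes were higher, and 1 lower (Trp53inp1), where 6.75% were lower and 12.6% changed either way. The median of the 10 was -0.06, beside -0.81 over all genes. Here too no count is given for fits that leave a single library in a group. For day 7 against day 0, limma called 6 of the 10 higher (Bax, Bbc3, Cdkn1a, Mdm2, Pmaip1, and Phlda3 with the same limit), where 11.3% of all genes were higher, and 1 lower (Trp53inp1), where 29.3% were lower and 40.6% changed either way. The median was 2.62 (2.59 with Phlda3 at its bound), beside -1.14 over all genes. Quantile normalization moved the medians of all genes to -0.04, -0.10 and -0.16 in the 3 comparisons. It split all calls for day 7 against day 0 into 1245 higher and 1082 lower, beside 2183 higher and 5649 lower without it, and left 5 of the 10 genes called higher and 0 lower. With the 2 groups only, 4 of the 10 genes were called higher for day 7 against day 0, beside 1573 of all genes. The 3 comparisons share libraries and are not independent of each other.

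The counts were also read at a common depth. After the reads of every library were thinned to 157797, Cdkn1a had 1 and 3 reads in day 0 marrow, 12 and 12 in day 4 cells and 68 and 74 in day 7 cells. Phlda3 had 10 and 5 reads at day 7 and 0 in the other libraries. Trp53inp1 had 20 and 39 reads in day 0 marrow, 145 and 195 in day 4 cells and 11 and 4 in day 7 cells. In this single random draw Cdkn1a was again highest at day 7 and Trp53inp1 at day 4, and Phlda3 had reads at day 7 alone. The thinned reads did not pass for Cdkn1a at day 7 against day 4 (limma adjusted p = 0.0729) or for Trp53inp1 at day 4 against day 0 (adjusted p = 0.0903) and at day 7 against day 0 (0.0983). For day 7 against day 0 they also did not pass for Mdm2 (0.0801), Bbc3 (0.0542) or Pmaip1 (0.0892), and for day 4 against day 0 not for Mdm2 (0.0738). Bbc3 had at most 4 reads in any thinned library, too few to order the days.

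The other p53 targets were described from a list of 32 genes, of which 31 were tested. At day 4 against day 0, limma called 4 of 31 higher and 1 lower, beside 3.66% and 1.92% of all genes, with a median log2 fold change of -0.13. The higher genes were Fas, the death receptor, Dram1, a lysosomal regulator of autophagy, Plk3, a stress kinase, and Xpc, a sensor of DNA lesions, while Steap3, an iron reductase, fell. Of these only Fas was set to be named, and the others were chosen after their values were seen. Fas, a receptor that starts apoptosis, had 54.1 and 33.0 RPKM at day 4, against 5.16 and 7.04 RPKM at day 0 (2.62 ± 0.41, limma adjusted p = 0.0165). It then fell to 11.5 and 12.98 RPKM at day 7 (-1.71 ± 0.41 against day 4, adjusted p = 0.0311), so that its day 4 libraries were above all others, as for Trp53inp1. By voom 0 of the 31 were higher and 2 lower at day 4.

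At day 7 against day 4, limma called 6 of these 31 higher and 3 lower, beside 5.85% and 6.75% of all genes. It called 9 higher and 8 lower at day 7 against day 0, beside 11.3% and 29.3% of all genes, so that the lower count is near the background. The medians were -0.20 and 0.06. Gdf15, a secreted stress cytokine, had 140.2 and 184 RPKM at day 7, against 3.92 and 2.31 RPKM at day 4 (5.32 ± 0.56, limma adjusted p = 0.00105). Rps27l, a ribosomal protein paralog induced by p53, had 604 and 704 RPKM at day 7, against 50.5 and 29.6 RPKM at day 4 (4.04 ± 0.42, adjusted p = 0.000948), and its reads may be shared with Rps27. Pltp, a phospholipid transfer protein, had 93.5 and 104.4 RPKM at day 7, against 3.24 and 0.431 RPKM at day 4 (5.34 ± 0.60, adjusted p = 0.00136). Tnfrsf10b, a TRAIL death receptor, went the other way, with 0.818 and 0.266 RPKM at day 7, against 48.2 and 16.0 RPKM at day 0 (-4.25 ± 0.76, adjusted p = 0.00713). Btg2, an antiproliferative gene, and Gadd45a, a growth arrest gene, passed in no comparison. Btg2 had 96.5 and 65.8 RPKM in day 0 marrow, 101.9 and 163.8 in day 4 cells and 63.3 and 47.8 in day 7 cells. Gadd45a had 35.4 and 62.1, 43.7 and 78.5, and 47.3 and 55.1 RPKM on the same days. Gadd45a overlapped between the days, while Btg2 was above its day 0 values in both day 4 libraries and below them in both day 7 libraries.

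**Figure D3:**
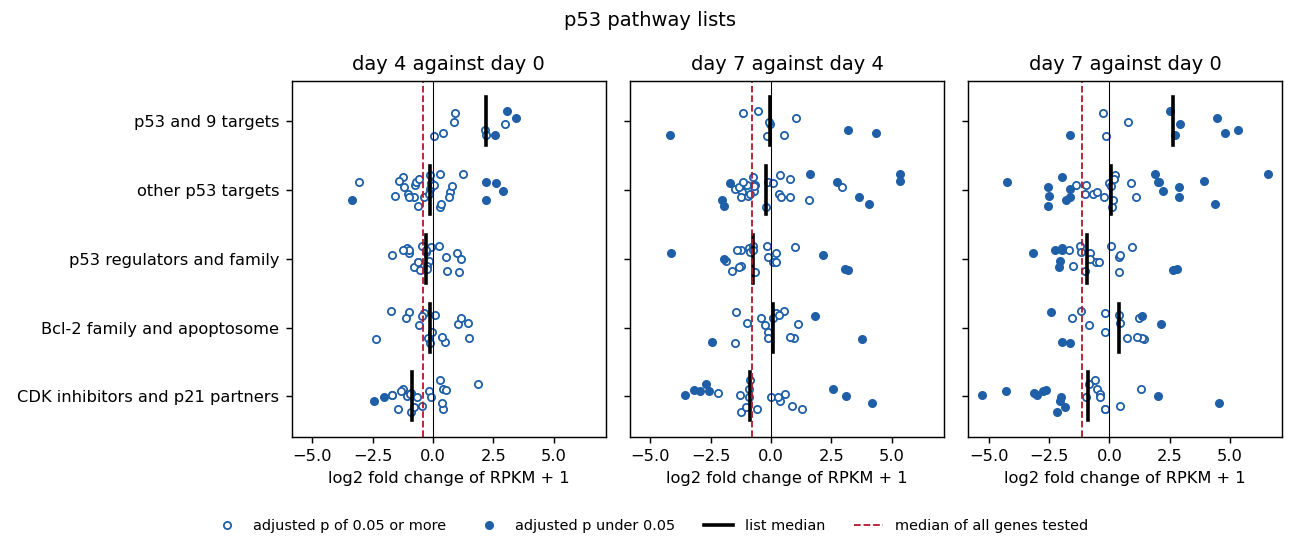
Log2 fold change of RPKM + 1 of each tested gene in 5 lists for the 3 comparisons, with filled points at limma adjusted p under 0.05, a black bar at the list median and a dashed line at the median of all genes tested. The median of p53 and its 9 targets lies at 2.18 and 2.62 in the comparisons with day 0, and that of the other p53 targets at -0.13 and 0.06.

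The partners of the targets did not all move with them. Mdm4, the MDM2 relative that masks the activation domain of p53, had 11.01 and 27.7 RPKM in day 0 marrow, 39.1 and 32.9 in day 4 cells and 1.51 and 0.724 in day 7 cells. It fell at day 7 against day 4 (-4.15 ± 0.51, limma adjusted p = 0.00201) and at day 7 against day 0 (-3.16 ± 0.51, adjusted p = 0.00494). Mdm2 stood at 0.535 and 0.724 times the RPKM of Mdm4 in day 0 marrow, 1.67 and 4.65 times in day 4 cells and 53.4 and 78.8 times in day 7 cells. Among 22 tested regulators and relatives of p53, limma called 0 at day 4 against day 0 (2 higher and 2 lower at unadjusted p under 0.05, 0 by voom). Of all genes 5.58% changed either way in that comparison. It called 3 higher and 2 lower at day 7 against day 4, beside 5.85% and 6.75% of all genes. It called 2 higher and 6 lower at day 7 against day 0, near the 11.3% and 29.3% of all genes, with medians of -0.74 and -0.91 (-0.81 for day 7 against day 4 with genes at 0 set at their bound). The 3 higher genes at day 7 against day 4 were the ribosomal proteins Rpl5, Rpl11 and Rpl23, which bind MDM2 and whose reads can be shared with pseudogenes. Rpl23 had 429 and 481 RPKM at day 7, against 39.5 and 60.5 RPKM at day 4, and Rpl11 was named after its values were seen. Kat5, an acetyltransferase of p53, fell at day 7 against day 4 (-1.95 ± 0.39, adjusted p = 0.0159). The p53 relatives Trp63 and Trp73 had at most 3.74 RPKM in any library and were listed at 0 in both day 7 libraries.

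In the Bcl-2 family and apoptosome list, limma called 0 of 17 at day 4 against day 0 (3 higher and 2 lower at unadjusted p under 0.05, 0 by voom). This is near the 5.58% of all genes that changed either way there. At day 7 against day 4 it called 2 higher and 1 lower, near the 12.6% of all genes that changed either way. It called 2 higher and 3 lower at day 7 against day 0, a smaller share than the 40.6% of all genes, with medians of -0.13, 0.07 and 0.40 in the 3 comparisons (0.43 in the last with genes at 0 set at their bound). Bak1, which encodes the other pore-forming protein, had 17.0 and 26.5 RPKM at day 7, against 0.724 and 0.513 RPKM at day 4 (3.79 ± 0.68, limma adjusted p = 0.0102). Its day 0 values of 3.06 and 15.7 RPKM were both above day 4, where Bax had already risen. The values in day 0 library II and day 4 library I were below the sensory receptor medians of those libraries (3.11 and 2.28 RPKM). The order of day 0 and day 4 for Bak1 is therefore uncertain. Mcl1, an anti-apoptotic relative, had 219 and 176 RPKM at day 7, against 49.3 and 62.1 RPKM at day 4 (1.81 ± 0.39, adjusted p = 0.0217). Bcl2 and Bcl2l1, both anti-apoptotic, passed in no comparison. Bcl2 had 4.14 and 4.56 RPKM in day 0 marrow, 3.61 and 1.82 in day 4 cells and 2.10 and 1.92 in day 7 cells. Bax accordingly stood at 3.15 and 1.95 times the RPKM of Bcl2 at day 0, at 24.5 and 98.6 times at day 4, and at 121 and 139 times at day 7. Bcl2 was below the 95th percentile of the sensory receptor genes in each day 0 library (9.85 and 13.7 RPKM) and day 4 library (8.71 and 2.51 RPKM). Bax rested on 6 and 2 reads at day 0. The ratios at day 0 and day 4 are therefore uncertain.

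**Figure D4:**
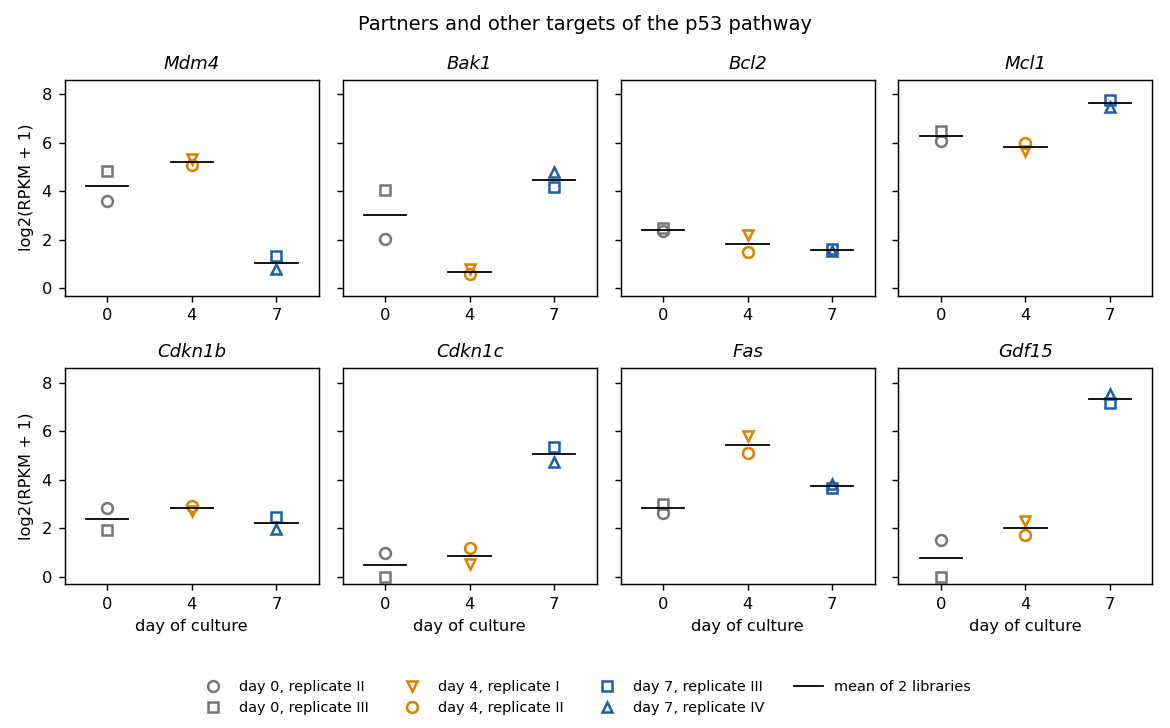
Expression of 8 partner and target genes of the p53 pathway in each library, as log2(RPKM + 1) against day of culture, with one symbol per library and a line at the mean of the 2 log2 values. Mdm4 is lowest and Gdf15 and Cdkn1c are highest in both day 7 libraries, Bak1 is lowest and Fas highest in both day 4 libraries, and Cdkn1b overlaps across days.

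Around p21, the list of CDK inhibitors and cell cycle partners had 22 tested genes. Limma called 0 higher (1 at unadjusted p under 0.05, 0 by voom) and 2 lower at day 4 against day 0 (3.66% and 1.92% of all genes). It called 3 higher and 5 lower at day 7 against day 4 (5.85% and 6.75% of all genes), and 2 higher and 10 lower at day 7 against day 0 (11.3% and 29.3% of all genes). The medians were -0.85, -0.89 and -0.90. Mki67, a proliferation marker, had 1.21 and 1.90 RPKM at day 7, against 18.8 and 44.9 RPKM at day 4 (-3.57 ± 0.60, limma adjusted p = 0.00764). Ccna2, the S phase and mitotic cyclin A2, had 3.39 and 2.34 RPKM at day 7, against 21.6 and 38.3 RPKM at day 4 (-2.96 ± 0.43, adjusted p = 0.00408), and Ccnd3, a G1 cyclin, 6.11 and 7.33 RPKM, against 74.5 and 63.6 RPKM (-3.18 ± 0.36, adjusted p = 0.00134). Pcna, the replication clamp that p21 binds, went the other way, with 603 and 462 RPKM at day 7, against 44.2 and 82.4 RPKM at day 4 (3.11 ± 0.46, adjusted p = 0.00462). Of the other Cip/Kip inhibitors, Cdkn1c (p57) had 39.5 and 25.5 RPKM at day 7, against 0.455 and 1.29 RPKM at day 4. It was listed at 0 in day 0 library III. Its place in the test rests mainly on day 7, so its limma call is not given as support. The counts of higher genes in this list include it. Cdkn1b (p27) had 2.81 to 6.56 RPKM over the 6 libraries and passed in no comparison.

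The genes whose levels were most like those of Trp53, Cdkn1a, Mdm2 and Bax were sought among 2797 tested genes outside the lists with a mean of at least 20 RPKM. Pearson's r of log2(RPKM + 1) over the 6 libraries was used as a description, since the libraries of a day share depth and background. Nearest to Cdkn1a were Tcirg1, a subunit of the lysosomal proton pump (r = 0.998), Arf4 (0.998) and Pla2g15, a lysosomal phospholipase (0.997). Nearest to Bax were Rnh1 (0.999), Ninj1 (0.998) and Aamp (0.996), and nearest to Mdm2 were Cln3 (0.993), Mid1ip1 (0.992) and Klf6 (0.990). Ninj1, a cell surface protein of membrane rupture, had 10.9 and 5.598 RPKM in day 0 marrow, 136 and 297 in day 4 cells and 618 and 731 in day 7 cells. The best match to Trp53 was Golph3, at r = 0.910.

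The markers that moved beside these genes were counted by the same fit. Of 10 macrophage markers 9 were higher at day 7 against day 4, beside 5.85% of all genes. At day 4 against day 0 limma called 0 of them higher (1 at unadjusted p under 0.05, 0 by voom), beside 3.66% of all genes. Of 9 neutrophil markers 9 were lower at day 7 against day 4 (6.75% of all genes), where Cdkn1a rose and Trp53inp1 fell. Of 8 erythroid markers 8 were lower at day 4 against day 0 (1.92% of all genes), where Bax, Mdm2 and Trp53inp1 rose. At day 7 Mpo and Prtn3 were listed at 0 in both libraries, and C1qa was listed at 0 in both day 0 libraries. The part of these cell types in the changes of the p53 targets was not tested.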

How the data were processed

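The deposited table gives RPKM per gene and library with exon lengths, per the file headers. The submitters' processing notes name mm9, TopHat2 2.0.13 and SAMtools 1.1. On the read counter, annotation and strand: not given in the sources used here. RPKM times length gave whole multiples of 1 read within 6.88e-05 reads, and these reads were used. Genes with at least 1 RPKM in at least 2 libraries were tested on log2(RPKM + 1), which understates changes of low genes. A limma 3.58.1 model of 3 group means (R 4.3.3, eBayes with trend, 3 residual degrees of freedom, checked on simulated data) gave two-sided p-values, Benjamini-Hochberg adjusted over all genes tested and called under 0.05. An exact permutation of 2 against 2 libraries cannot pass 0.05. Read intervals (exact, 95%) and floors of 3 reads cover counting error only. In RefSeq GRCm38.p6, 0 other genes overlap the 10. The genes and lists were chosen with earlier results of these data known. Named were all 10 genes, up to 4 per other list by smallest adjusted p, up to 2 by highest mean and a fixed set, of which Bok, Bad, Cycs and Cdk4 are not described. A further gene that the rule names is not reported here.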

Additional observations from a re-analysis of the deposited data

How the results depend on the processing

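Of the 13 called changes among the 10 genes, 0 reversed under 17 alternatives, and 162 of 221 values kept their call. Cdkn1a and Bax at day 7 against day 0 lost their call in 0 of them. The counts include Phlda3, which had to differ to be tested. Some alternatives change the test but leave the fold change itself as it was, so no sign could turn there. These were the changed filters, the 2 groups only, weights per library, no trend, and leaving out a library of the day not compared. Of the 10 genes, 3 were called at day 4 against day 0, and 1 with a pseudocount of 0.1 RPKM, voom, thinning or no trend, 0 with weights per library and 5 with a filter of 5 RPKM. At day 7 against day 4 the count was 3, and 5 by voom. At day 7 against day 0 it was 7, then 3 after thinning and 4 with the 2 groups only. Leaving out a library gave 0 to 5, 0 to 3 and 3 to 7 in the 3 comparisons. In the other pathway lists (7, 25 and 41 called) these were 0 to 17, 0 to 33 and 11 to 43. Those lists gave 4 (pseudocount 0.1 RPKM), 2 (voom), 3 (thinned), 0 (weights) and 2 (no trend) at day 4 against day 0. They gave 10 (quantile), 48 (voom) and 7 (thinned) at day 7 against day 4, and 19 (quantile) and 19 (thinned) at day 7 against day 0. Over all genes the calls were 1075, 2428 and 7832, beside 247, 12544 and 11603 by voom.

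Signs turned for uncalled log2 fold changes alone. At day 4 against day 0 Trp53 had -0.58 (quantile) and -0.52 to 0.61 with a library left out, and Phlda3 -1.59 (voom) and 0 (thinned). At day 7 against day 4, median ratio scaling and voom gave Trp53 0.079 and 0.048, Pmaip1 0.20 and 0.23 and Ccng1 0.19 and 0.19, and thinning gave Bbc3 -0.041, Pmaip1 0.77 and Ccng1 0.10. Leaving out a library there gave Trp53 -0.74 to 0.39, Mdm2 -1.16 to 0.058 and Pmaip1 -0.40 to 0.30. At day 7 against day 0 Trp53 had 0.30 (median ratio), 0.26 (voom) and -0.27 to 0.015 with a library left out, Ccng1 -0.21 (quantile), and Sesn2 0.087 (median ratio), 1.12 (quantile) and 0.22 (thinned). The cause was not tested. No paired analysis was possible because the groups share fewer than 2 replicate numbers. Depth limits day 0 most, where 5 of the 10 genes had at most 8 reads in all.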
